A study of Mus musculus with 7 samples.

Results

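The genes described here are 10 of the 19649 genes in the deposited table of normalized counts, chosen by symbol: Nfe2l2, Keap1, Nqo1, Hmox1, Gclc, Gclm, Txnrd1, Srxn1, Fth1 and Ftl1. All 10 were in the table, and all 10 passed the filter on low values. They come from RNA sequencing of long-term haematopoietic stem cells of mice, with 3 libraries from Calr fl/fl (Calr del52/del52) MxCre cells and 4 from Calr +/+ MxCre cells. Calr encodes calreticulin, a chaperone of the endoplasmic reticulum, and del52 is the mutant allele, which the labels give as a knockin bred with MxCre. MxCre is a Cre recombinase under an interferon-inducible promoter that is active in blood cells and in other tissues. Both genotypes carried it, both were given the interferon inducer pI:pC, and neither was given a drug. The sort was made 14 days after the start of induction and took cells with Kit, Sca-1 and CD150 on their surface and without lineage markers or CD48. The ages of the mice were not given in the labels.

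The libraries are called mutant 1 to 3 and wild-type 1 to 4. Titles of wild-type 3 and 4 and of mutant 1 and 2 are numbered in a common series, unlike those of the other 3 libraries, and the labels do not say if it marks a batch. Nothing in the labels ties the libraries to separate animals, and p-values therefore rest on a spread between libraries that may be technical. Between 21325340 and 28710304 reads were counted per library. All 15 stem cell marker genes looked up, among them Procr, Mecom and Hlf, were in the table. Cd48, excluded in the sort, had 124 to 241 normalized counts, Flt3 had 620 to 1203 and Itgam 34.8 to 446. Genes of neutrophils and monocytes, also 15, were not absent. They summed to 11104 to 51186 in mutant and 46455 to 90982 in wild-type libraries. Sums of the stem cell markers were 65710 to 76240 and 67560 to 109103. Wild-type 3 and 4 stood apart from the other 5 libraries. Long transcripts read relatively higher in them, with slopes of log2 deviation against log10 exonic length of 0.80 and 0.81, against -0.58 to 0.03 in the other libraries. Of the stem cell markers, 7 of 15 were higher in wild-type 3 and 4 than in the other 5 libraries and 4 of 15 lower, against 30.4% and 29.3% of all genes. Kit, whose product the sort selects, had 26511 and 25305 normalized counts there and 2976 to 6677 in the others. Genes of the other selected surface proteins went the other way. Ly6a, for Sca-1, had 2323 and 2407 there and 4207 to 6363 in the others. Slamf1, for CD150, had 1416 and 1422 there and 1778 to 2407 in the others. The mitochondrial share of reads was 1.11%, 0.68% and 1.17% in mutant 1 to 3 and 0.68%, 0.71%, 0.36% and 0.41% in wild-type 1 to 4. Differences are therefore given over all 4 wild-type libraries and against each wild-type pair apart. This covers the 10 genes, partner ratios and the genes named by smallest p from the pathway lists. The level of Calr itself was 14239, 15724 and 15317 normalized counts in mutant 1 to 3 and 18606, 16639, 15922 and 15965 in wild-type 1 to 4 (exact permutation test over 35 splits, two-sided p = 0.0857). The allele changes the coding sequence, so the level of Calr is a weak check of the labels.

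NRF2, the product of Nfe2l2, is a transcription factor that switches on antioxidant genes. KEAP1 holds it in the cytoplasm and passes it to an ubiquitin ligase for breakdown, until oxidants or electrophiles modify cysteines of KEAP1 and NRF2 reaches the nucleus. There it pairs with small MAF proteins on antioxidant response elements (AREs), in competition with BACH1, and its targets make glutathione, keep thioredoxin reduced, detoxify quinones, break down haem and store iron. In haematopoietic stem cells the pathway is known for its part in quiescence and in limiting reactive oxygen species. NRF2 is controlled largely at the level of the protein, which was not measured here.

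The sequences below show where letters of an ARE stand near the starts of these genes. The 250 bases before each annotated start were read from RefSeq promoter windows of GRCm38.p6, which matched 8 of the 10 genes with 11 windows; Hmox1 and Gclc were not matched. The ARE core was searched as TGACNNNGC, and a MAF-type site as TGANTCAGC, both on both strands. Across all 32851 windows, 10.2% held the core and 1.02% the MAF-type site. Among the 11 windows of these genes, 3 held the core (Nfe2l2, Gclm and the second of the Txnrd1 starts) and 1 held the MAF-type site (Srxn1). Capitals mark the match, which is a description and not a shown binding site. Bases outside these windows were not searched, so a window without a match does not show that a gene lacks an ARE. The whole window is printed for Nfe2l2 (chr2:75704664-75704913, minus strand) and Nqo1 (chr8:107403206-107403455, minus strand), because their groups of libraries did not overlap. The windows of Srxn1 (chr2:152105459-152105507), Gclm (chr3:122245403-122245451) and Txnrd1 (chr10:82859094-82859142), all on the plus strand, are cut to 20 bases on either side of the match.
Nfe2l2: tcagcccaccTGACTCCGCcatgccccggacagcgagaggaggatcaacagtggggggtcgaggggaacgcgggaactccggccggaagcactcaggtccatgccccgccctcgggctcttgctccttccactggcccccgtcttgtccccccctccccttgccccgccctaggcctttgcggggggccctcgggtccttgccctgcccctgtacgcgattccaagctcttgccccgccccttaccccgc
Nqo1: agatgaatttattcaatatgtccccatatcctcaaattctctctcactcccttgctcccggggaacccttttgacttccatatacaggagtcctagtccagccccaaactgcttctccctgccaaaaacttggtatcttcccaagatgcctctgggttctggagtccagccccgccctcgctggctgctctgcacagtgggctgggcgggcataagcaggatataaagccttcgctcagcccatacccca
Srxn1: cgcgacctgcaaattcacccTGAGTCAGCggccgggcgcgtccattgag
Gclm: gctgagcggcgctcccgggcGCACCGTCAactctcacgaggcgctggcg
Txnrd1: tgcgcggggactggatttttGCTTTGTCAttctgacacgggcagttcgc

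Over all 7 libraries none of these 10 genes passed the test across 16047 genes, and differences between mutant and wild-type were small. The largest was that of Fth1, at 1.59-fold. Limma called 0 of the 10 genes, with adjusted p between 0.538 and 0.684, against 0.0% of all genes. At an unadjusted p under 0.05 limma gave 3 of the 10 (Nqo1, Fth1 and Nfe2l2), against 8.51% of all genes, and edgeR and DESeq2 called 0 of them (0.0% and 0.667% of all genes). Log2 differences of mutant minus wild-type means were positive in 6 of the 10 and negative in 4. Their median was 0.19, beside 0.00 over all genes tested. For 2 of the 10 (Nfe2l2 and Nqo1) the mutant libraries all lay above the wild-type libraries, and for 0 they all lay below. Of all genes, 5.23% lay above in this way and 4.34% below, so that 9.57% did not overlap. That count is not read as standing apart from that share.

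**Figure D1:**
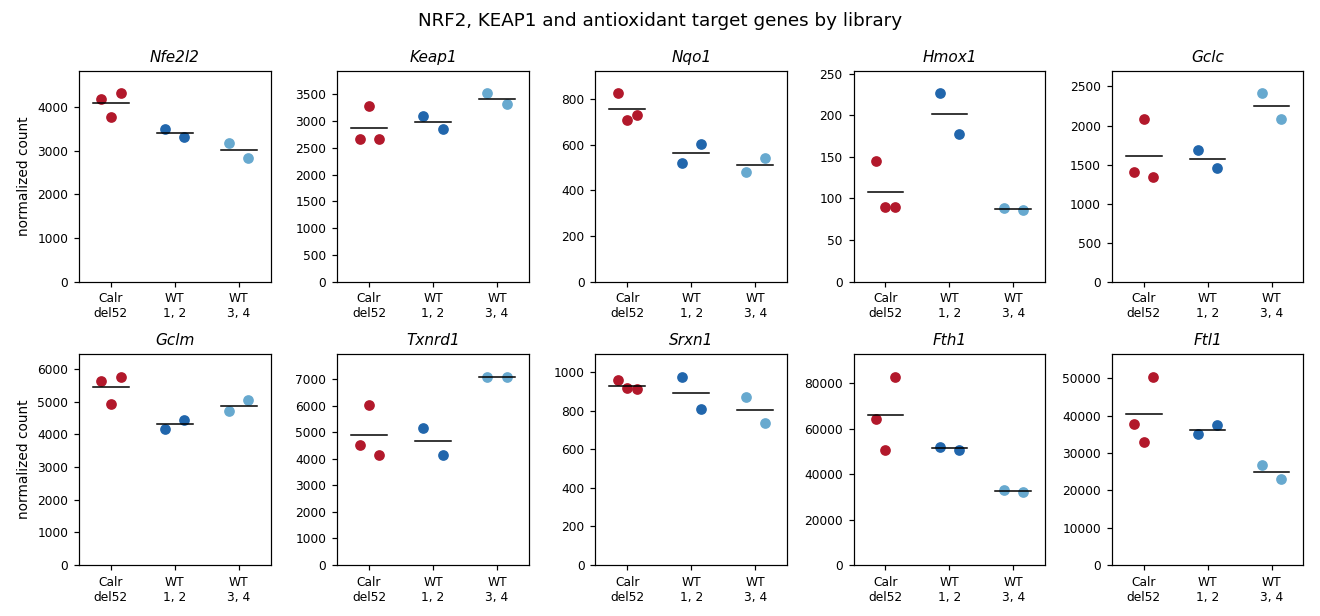
Normalized counts (vertical axes, from 0) of the 10 genes in the 3 Calr del52 libraries (red), wild-type 1 and 2 (dark blue) and wild-type 3 and 4 (light blue); points are libraries and lines are means. Nfe2l2 and Nqo1 have every mutant point above every wild-type point, while Hmox1, Gclc, Txnrd1, Fth1 and Ftl1 differ between the wild-type pairs.

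Nfe2l2 (ENSMUSG00000015839.6, chromosome 2, 75675513 to 75704641, minus strand, GRCm38) had 4188, 3766 and 4305 normalized counts in mutant 1 to 3. The wild-type libraries had 3491, 3299, 3182 and 2826. All mutant libraries were higher than all wild-type libraries, though mutant 2 was 1.08-fold above wild-type 1, the nearest pair. Means were 4086 ± 284 in mutant (SD, n = 3) and 3200 ± 279 in wild-type libraries (SD, n = 4), a log2 difference of 0.35 (SE 0.15, 95% interval 0.00 to 0.71; limma, adjusted p = 0.538). The direction was the same against each pair, with 0.27 against wild-type 1 and 2 and 0.44 against wild-type 3 and 4. These comparisons share the mutant libraries. Only the one against wild-type 3 and 4 passed (limma, adjusted p = 0.0380), where 42.6% of all genes passed, and the pairs themselves did not pass a test of their difference (log2 -0.18, adjusted p = 0.174).

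Keap1, the inhibitor (ENSMUSG00000003308.15, chromosome 9, 21229730 to 21239361, minus strand), had 2672, 3288 and 2660 normalized counts in mutant 1 to 3, against 3102, 2860, 3519 and 3312 in wild-type 1 to 4. Mutant 2 lay among the wild-type libraries and the other mutant libraries lay below all of them. The log2 difference was -0.16 (SE 0.16, interval -0.53 to 0.21; limma, adjusted p = 0.632), with -0.06 against wild-type 1 and 2 and -0.26 against wild-type 3 and 4.

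Nqo1 (ENSMUSG00000003849.8, chromosome 8, 107388225 to 107403206, minus strand) encodes the quinone reductase whose transcript is a standard readout of NRF2 activity. It had 823, 707 and 731 normalized counts in mutant 1 to 3 and 520, 604, 480 and 543 in wild-type 1 to 4. No mutant library came within the wild-type range, and the nearest pair, mutant 2 and wild-type 2, stood 1.17-fold apart. Its means were 754 ± 61.4 (n = 3) and 537 ± 51.8 (n = 4), a 1.41-fold or log2 0.49 difference (SE 0.17, interval 0.10 to 0.89; limma, adjusted p = 0.538). Only 3.45% of all genes had a smaller p. Against wild-type 1 and 2 the log2 difference was 0.42 and against wild-type 3 and 4 it was 0.56, of which the second passed (limma, adjusted p = 0.0293). A single transcript was annotated, and its FPKM, a level per transcript length, kept the groups apart too (19.97, 16.7 and 17.9 in mutant 1 to 3, against 12.3, 14.7, 11.5 and 13.1 in wild-type 1 to 4). FPKM sums differed between libraries, and with every library rescaled to a common sum, mutant 3 lay below wild-type 3 and 4 and the groups overlapped. The log2 difference was then 0.26 for Nqo1, and for Nfe2l2, whose groups overlapped too, it was 0.09. This rescaling moved the median log2 difference of all genes to -0.18, so these values are not read against 0 alone. On the rescaled values the groups of Fth1 did not overlap (log2 0.43).

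Glutathione is made by glutamate-cysteine ligase, whose catalytic subunit is encoded by Gclc and whose modifier subunit, which raises its activity, by Gclm. Gclc (ENSMUSG00000032350.9, chromosome 9, 77754535 to 77794485, plus strand) had 1402, 2089 and 1336 normalized counts in mutant 1 to 3, against 1684, 1462, 2412 and 2078 in wild-type 1 to 4. Mutant 2 read like wild-type 4, and the other mutant libraries read below all wild-type libraries. The log2 difference of -0.25 (SE 0.24) became 0.01 against wild-type 1 and 2 and -0.51 against wild-type 3 and 4. Gclm (ENSMUSG00000028124.15, chromosome 3, 122245557 to 122270732, plus strand) had 5638, 4926 and 5772 in mutant 1 to 3 and 4168, 4458, 4711 and 5053 in wild-type 1 to 4. Mutant 2 fell between wild-type 3 and 4, and the other mutant libraries were the highest. Its log2 difference was 0.24 (SE 0.15, interval -0.11 to 0.59), with 0.33 and 0.16 against wild-type 1 and 2 and against wild-type 3 and 4. Neither gene passed any of these tests.

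Txnrd1 (ENSMUSG00000020250.10, chromosome 10, 82833951 to 82897712, plus strand) encodes the cytosolic thioredoxin reductase, which keeps thioredoxin reduced with electrons from NADPH. It had 4525, 6017 and 4131 normalized counts in mutant 1 to 3, against 5152, 4146, 7089 and 7073 in wild-type 1 to 4. Wild-type 3 and 4 were the highest libraries, and wild-type 1 and 2 lay within the mutant range. The log2 difference of -0.24 (SE 0.24) was 0.06 against wild-type 1 and 2 and -0.55 against wild-type 3 and 4, where it was lower in the mutant (limma, adjusted p = 0.0394). Srxn1 (ENSMUSG00000032802.8, chromosome 2, 152105516 to 152111376, plus strand), which encodes sulfiredoxin, the enzyme that restores overoxidized peroxiredoxins, had groups that overlapped. It had 959, 914 and 910 in mutant 1 to 3 and 976, 808, 870 and 736 in wild-type 1 to 4, a log2 difference of 0.14 (SE 0.17, interval -0.25 to 0.53), with 0.06 against wild-type 1 and 2 and 0.21 against wild-type 3 and 4.

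**Figure D2:**
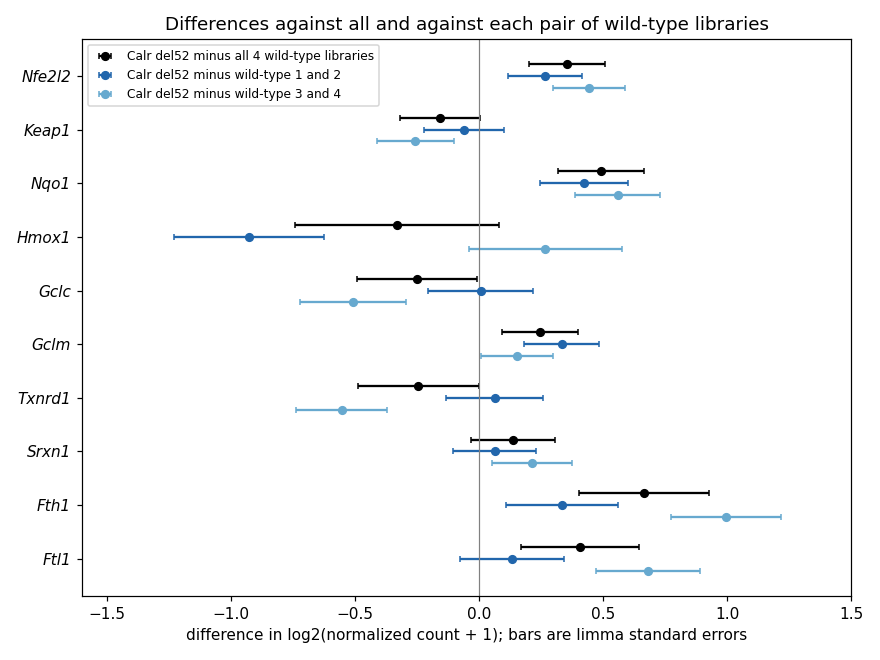
Log2 difference (horizontal axis) of Calr del52 minus all 4 wild-type libraries (black), minus wild-type 1 and 2 (dark blue) and minus wild-type 3 and 4 (light blue); bars are limma standard errors. Nfe2l2 and Nqo1 lie right of 0 in all these comparisons, Hmox1 lies at -0.93 against wild-type 1 and 2 and at 0.27 against wild-type 3 and 4, and Gclc and Txnrd1 lie left of 0 only where wild-type 3 and 4 are used.

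Hmox1 (ENSMUSG00000005413.8, chromosome 8, 75093621 to 75100589, plus strand) encodes haem oxygenase 1, which opens the haem ring and frees its iron. It was the lowest of the 10 genes, with 74 to 207 reads per library. It had 145, 89.3 and 89.4 normalized counts in mutant 1 to 3 and 226, 178, 88.4 and 85.7 in wild-type 1 to 4. The mutant libraries were below both of wild-type 1 and 2 and above both of wild-type 3 and 4, although mutant 2 and 3 were within a few counts of wild-type 3 and 4. Log2 differences were -0.33 (SE 0.41) over all libraries, -0.93 against wild-type 1 and 2 and 0.27 against wild-type 3 and 4, none of which passed. Wild-type 3 and 4 were lower than wild-type 1 and 2 (log2 -1.19; limma, adjusted p = 0.00256). Macrophages that recycle haem are rich in this enzyme. In the table were 8 of 12 macrophage genes, with summed counts of 448 to 702 in mutant and 562 to 743 in wild-type libraries. Adgre1, their F4/80 marker, had 0 to 12.5 normalized counts, but Cd163 had 176 to 343 and Spic 95.9 to 182. C1qb had 51.6, 13.4 and 30.2 in mutant 1 to 3 and 78.7, 47.8, 17.5 and 13.3 in wild-type 1 to 4. Vcam1 had 84.1, 71.4 and 21.7 in mutant 1 to 3 and 111, 75.8, 189 and 106 in wild-type 1 to 4. Genes of neutrophils and monocytes, all 15 of which were in the table, summed to 51186, 11104 and 13530 in mutant 1 to 3 and 53029, 46455, 90982 and 52129 in wild-type 1 to 4. Mutant 1 had the largest mutant sum and the most Hmox1 among mutant libraries, while wild-type 3, with the largest sum of all, was among the lowest for Hmox1. In bulk samples, fewer cells of a type and less RNA per cell cannot be told apart, and the part of these genes in the values of Hmox1 was not tested.

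Ferritin stores iron in a shell of heavy chains, which oxidize iron, and light chains, which help to mineralize it. Fth1, the heavy chain gene (ENSMUSG00000024661.7, chromosome 19, 9980598 to 9985098, plus strand), had 64159, 50687 and 82850 normalized counts in mutant 1 to 3, against 51898, 50674, 32816 and 31944 in wild-type 1 to 4. Mutant 2 was level with wild-type 2 and lay below wild-type 1, mutant 1 and 3 were the highest, and wild-type 3 and 4 were the lowest. The mitochondrial share of reads was also highest in mutant 3 and 1 and lowest in wild-type 3 and 4. The length slope was lowest in mutant 3 and 1 (-0.58 and -0.38) and highest in wild-type 3 and 4 (0.80 and 0.81). The part of either in the order of Fth1 was not tested. Means were 65899 ± 16152 (n = 3) and 41833 ± 10933 (n = 4), a log2 difference of 0.66 (SE 0.26, interval 0.06 to 1.27; limma, adjusted p = 0.538). The difference was 1.0 against wild-type 3 and 4 (limma, adjusted p = 0.00911) and 0.33 against wild-type 1 and 2 (adjusted p = 0.704). With the length slope as a covariate it was 0.31 over all libraries.

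Ftl1, the light chain gene (ENSMUSG00000050708.16, chromosome 7, 45457944 to 45459884, minus strand), had 37758, 32916 and 50424 in mutant 1 to 3 and 35162, 37370, 26723 and 22981 in wild-type 1 to 4. Its order over the libraries was close to that of Fth1, with mutant 3 at the top and wild-type 3 and 4 at the bottom. The log2 difference was 0.41 (SE 0.24), with 0.13 against wild-type 1 and 2 and 0.68 against wild-type 3 and 4 (limma, adjusted p = 0.0304 for the second). With the length slope as a covariate it was 0.11 over all libraries. Processed pseudogenes of both chains were in the table, so reads may have been shared. The highest of these, Ftl1-ps1, had 45.7 to 152 normalized counts.

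Ferritin protein is set largely by translation, through an iron-responsive element in the 5′ untranslated region that iron regulatory proteins bind when iron is low. The elements are printed because RNA levels of ferritin can part from its protein, which was not measured. They were read from GENCODE vM21 transcripts, at bases 87 to 116 of the main coding transcript of Fth1 and 78 to 107 of that of Ftl1, and capitals mark the 6 letters of the loop. Of the 30 positions, 26 were identical.
Fth1: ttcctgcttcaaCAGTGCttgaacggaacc
Ftl1: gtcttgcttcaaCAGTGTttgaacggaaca

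Read pair by pair, shares of the 10 genes called are given beside those of all genes. Limma called 5 of the 10 against wild-type 3 and 4 (42.6% of all genes). Nfe2l2, Nqo1, Fth1 and Ftl1 were higher in the mutant, as were 19.7% of all genes, and Txnrd1 was lower, as were 22.8%. Against wild-type 1 and 2 limma called 0 of the 10, with 0.318% of all genes called. Mutant libraries did not overlap with wild-type 1 and 2 in 4 of the 10 (26.4% of all genes) and with wild-type 3 and 4 in 8 of the 10 (67.6% of all genes). Between the wild-type pairs themselves, 5 of the 10 passed, and 54.9% of all genes. Gclc and Txnrd1 were higher in wild-type 3 and 4 (29.6% of all genes), and Hmox1, Fth1 and Ftl1 were lower (25.3%). With the title series as a covariate, 4 of the 10 passed and all were higher in the mutant (Nfe2l2, Nqo1, Fth1 and Ftl1, at 0.38, 0.50, 0.77 and 0.50), with 22.4% of all genes called and 9.96% higher. Within the title series (mutant 1 and 2 against wild-type 3 and 4), 3 of the 10 passed, all higher in the mutant (Nqo1, Fth1 and Ftl1), with 37.5% of all genes called and 16.4% higher. Outside it (mutant 3 against wild-type 1 and 2), Fth1 was higher and Hmox1 lower in the mutant, with 6.37% of all genes called, and the lone mutant library was taken to vary as the wild-type pair does. When the length slope was made a covariate, 0 of the 10 passed (0.791% of all genes). Nqo1, Fth1, Gclm and Nfe2l2 then had log2 differences of 0.42, 0.31, 0.29 and 0.26. The largest in size was that of Hmox1, at -0.84. Ftl1, Srxn1, Txnrd1, Gclc and Keap1 had 0.11, 0.08, 0.07, 0.04 and -0.04.

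Ratios between partner genes within a library are free of any scaling shared by the pair. They were chosen after the values had been seen. Using FPKM, Nfe2l2 over Keap1 was 1.33, 1.01 and 1.40 in mutant 1 to 3 and 0.983, 1.01, 0.841 and 0.828 in wild-type 1 to 4. Mutant 2 and wild-type 2 had the same ratio to 3 digits, and the other mutant libraries stood above. Its log2 difference was 0.44 (exact permutation test, two-sided p = 0.0286, the smallest that 35 splits allow; 0.0857 adjusted over 3 ratios). From normalized counts the p was 0.0571. The ratio differed by 0.31 against wild-type 1 and 2 and by 0.57 against wild-type 3 and 4 on the log2 scale. Fth1 over Ftl1 was 1.38, 1.26 and 1.35 in mutant and 1.21, 1.11, 1.03 and 1.16 in wild-type libraries. Here the groups did not overlap, with a log2 difference of 0.24 (exact p = 0.0571, adjusted 0.0857). It was 0.20 to 0.28 with any 1 library left out, 0.20 against wild-type 1 and 2 and 0.29 against wild-type 3 and 4. Gclc over Gclm was 0.0802, 0.148 and 0.0757 in mutant and 0.131, 0.105, 0.217 and 0.175 in wild-type libraries, with overlapping groups (log2 -0.64, exact p = 0.171), and the log2 difference was -0.28 against wild-type 1 and 2 and -1.01 against wild-type 3 and 4.

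**Figure D3:**
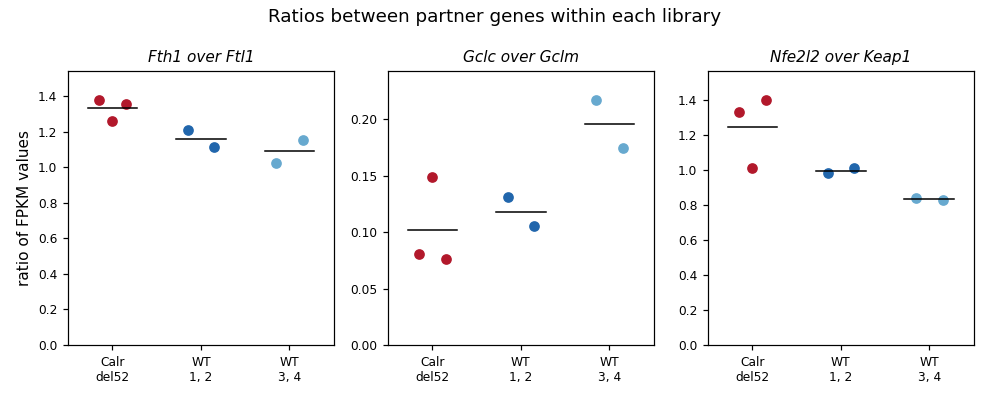
Ratio of FPKM values (vertical axes, from 0) of Fth1 over Ftl1, Gclc over Gclm and Nfe2l2 over Keap1 in Calr del52 libraries (red), wild-type 1 and 2 (dark blue) and wild-type 3 and 4 (light blue); points are libraries and lines are means. Fth1 over Ftl1 is 1.26 to 1.38 in the mutant and 1.03 to 1.21 in wild-type libraries, and mutant 2 is the lowest mutant library for this ratio and for Nfe2l2 over Keap1.

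Levels of different genes can be set side by side as FPKM summed over transcripts. The sum over all transcripts was itself not equal, at 550983 to 728004 in mutant and 464615 to 625447 in wild-type libraries. Fth1 was the most abundant at 2687 ± 704 in mutant and 1703 ± 455 in wild-type libraries, and Ftl1 came next at 2011 ± 475 and 1508 ± 361. Gclm followed at 178 ± 23.9 and 136 ± 13.7. Each of these was above the next in 7 of 7 libraries. Txnrd1 (58.8 ± 10.3 in mutant and 70.6 ± 18.8 in wild-type), Nfe2l2 (63.5 ± 5.6 and 50.7 ± 3.85) and Keap1 (51.5 ± 4.51 and 55.6 ± 2.95) did not keep an order. Txnrd1 was above Nfe2l2 in 4 of 7 libraries and Nfe2l2 above Keap1 in 4 of 7. Gclc (17.4 ± 4.30 and 20.8 ± 4.54), Nqo1 (18.2 ± 1.65 and 12.9 ± 1.35) and Srxn1 (14.2 ± 0.90 and 12.2 ± 1.16) were close to each other, with Gclc above Nqo1 in 5 of 7 libraries and Nqo1 above Srxn1 in 5 of 7. Hmox1 was the lowest in 7 of 7 libraries, at 2.62 ± 0.77 and 3.50 ± 1.67.

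Most of the 10 genes had 1 main transcript. Of 47 transcripts listed, 33 passed a filter of FPKM 1 in at least 3 libraries, and limma called 0 of them over all libraries (0.0% of all transcripts). When set against wild-type 3 and 4, limma called 5 (22.5% of all transcripts). The main coding transcript of Fth1, a 503-base transcript of Ftl1 and a 762-base transcript of Gclm were higher in the mutant (12.2% of all transcripts). A 5589-base transcript of Gclm and a 483-base transcript of Txnrd1 were lower (10.3%). The main coding transcript of Fth1 held 95.6% of the FPKM of its gene in mutant and 94.3% in wild-type libraries, and that of Nfe2l2 held 96.2% and 92.8%. The 5589-base transcript, the longest of Gclm, had 6.0, 6.91 and 5.82 FPKM in mutant 1 to 3 and 4.23, 4.73, 12.1 and 13.3 in wild-type 1 to 4. It was higher in wild-type 3 and 4 than in any other library. Its share of Gclm was 3.21%, 4.59% and 2.97% in mutant and 3.03%, 3.09%, 10.04% and 10.2% in wild-type libraries. The shorter coding transcripts, of 1088 and 1002 bases, were lowest in wild-type 3 and 4. Summed as FPKM, Gclm was lower in wild-type 3 and 4 than in wild-type 1 and 2 (log2 -0.22), while its normalized count was higher (log2 0.18), and neither difference passed. A 3325-base transcript of Txnrd1 held 18.9%, 17.1% and 4.32% of its gene in mutant 1 to 3 and 19.8%, 18.3%, 24.6% and 23.9% in wild-type 1 to 4, so mutant 3 stood below the other libraries.

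**Figure D4:**
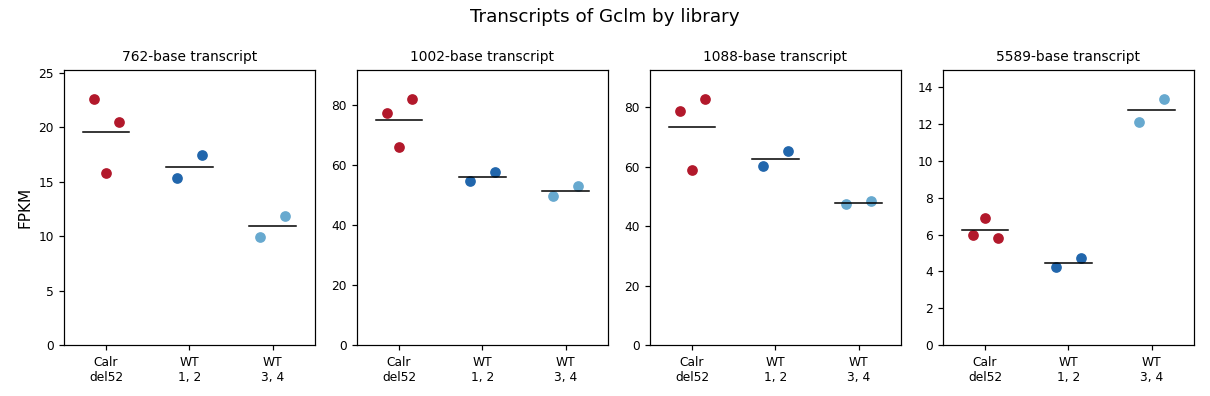
FPKM (vertical axes, from 0) of 4 transcripts of Gclm in Calr del52 libraries (red), wild-type 1 and 2 (dark blue) and wild-type 3 and 4 (light blue); points are libraries and lines are means. The 5589-base transcript is highest in wild-type 3 and 4, at 12.1 and 13.3, and the shorter transcripts are lowest there.

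Because the libraries were unstranded, reads of genes on opposite strands cannot be told apart. Keap1 overlaps the antisense gene Gm16754 (44.7 to 94.5 normalized counts), and Gclm overlaps Gm17494 (39.3 to 131). Ftl1 overlaps Gm10252, which had 132, 116 and 137 in mutant 1 to 3 and 113, 102, 296 and 136 in wild-type 1 to 4. Each of these is small beside the gene it overlaps.

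The wider pathway was described with 7 lists of 140 genes; the table held 128 and the filter left 125. No member of any list passed over all 7 libraries or against wild-type 1 and 2 in limma. Counts of list members higher or lower than in wild-type 3 and 4 are limma calls. Most genes named from the lists were picked by smallest p, which favours groups that do not overlap. Over whole lists, 0.0% to 13.6% of tested genes did not overlap, beside 9.57% of all genes. Non-overlap of a named gene is therefore not read as standing apart from that share. In the first list were partners and regulators of NRF2, with 6 of 17 tested genes positive and 11 negative (median log2 -0.11, beside 0.00 over all genes). Mafg and Mafk encode small MAF partners, and Palb2 encodes a DNA repair protein that also binds KEAP1. Mafg had 1206, 1335 and 1456 normalized counts in mutant 1 to 3 and 1522, 1819, 2274 and 2080 in wild-type 1 to 4, with every mutant library lower (log2 -0.52, SE 0.19; -0.33 and -0.71 against wild-type 1 and 2 and against wild-type 3 and 4). Palb2 had 334, 405 and 379 in the mutant and 656, 510, 569 and 513 in wild-type libraries, again with every mutant library lower (log2 -0.59, SE 0.19; -0.64 and -0.54 against the same pairs). Mafk had a log2 difference of -0.61, which was -0.03 against wild-type 1 and 2 and -1.19 against wild-type 3 and 4. In this list 2 of 17 genes were higher and 6 of 17 lower than in wild-type 3 and 4, beside 19.7% and 22.8% of all genes.

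Glutathione synthesis and recycling had 16 of 19 tested genes positive (median 0.39). Slc7a11, the cystine transporter that feeds glutathione synthesis, had 57.2, 34.8 and 54.4 normalized counts in mutant 1 to 3 and 10.9, 30.1, 26.7 and 27.4 in wild-type 1 to 4. It was low, and its mutant libraries all lay above the wild-type ones (log2 1.07, SE 0.43; 1.34 against wild-type 1 and 2 and 0.79 against wild-type 3 and 4). Wild-type 1 was well below the other wild-type libraries, and the difference was 0.75 to 1.29 with any 1 library left out. Gpx1, a glutathione peroxidase, and Glrx, glutaredoxin, had log2 differences of 0.69 and 0.51, which were 0.33 and 0.17 against wild-type 1 and 2 and 1.04 and 0.86 against wild-type 3 and 4. In the mutant 11 of 19 genes were higher and 1 of 19 lower than in wild-type 3 and 4 (19.7% and 22.8% of all genes), while the median against wild-type 1 and 2 was 0.17.

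Among thioredoxins and peroxiredoxins, 17 of 18 genes were positive over all libraries (median 0.32), but the median was 0.02 against wild-type 1 and 2 and 0.64 against wild-type 3 and 4, where 12 of 18 genes were higher and 0 lower (19.7% and 22.8% of all genes). Sesn1, encoding sestrin 1, had 4746, 5297 and 4885 normalized counts in mutant 1 to 3 and 4555, 3932, 3756 and 3508 in wild-type 1 to 4 (log2 0.34, SE 0.16; 0.23 against wild-type 1 and 2 and 0.45 against wild-type 3 and 4). Msrb2, a methionine sulfoxide reductase of mitochondria, had 2552, 1954 and 2562, against 1925, 1911, 1361 and 1466 (log2 0.51, SE 0.20; 0.28 and 0.73 against the same pairs). Both genes had their mutant libraries above all wild-type libraries, by a narrow margin over wild-type 1. Prdx2, a cytosolic peroxiredoxin abundant in red cells, had 0.49 over all libraries, 0.07 against wild-type 1 and 2 and 0.91 against wild-type 3 and 4. In the fit with the length slope Sesn2 passed and was higher in the mutant, where 0.791% of all genes passed. Limma also called Sesn2 higher in wild-type 3 and 4 than in wild-type 1 and 2, as were 29.6% of all genes.

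NADPH supply had 7 of 17 genes positive (median -0.01). Mthfd1 of folate metabolism had a log2 difference of -0.46, the NAD kinase gene Nadk -0.38 and Idh1, isocitrate dehydrogenase 1, 0.41, with overlapping groups. Against wild-type 1 and 2 these were -0.34, -0.25 and 0.27, and against wild-type 3 and 4 they were -0.58, -0.50 and 0.56. Superoxide and peroxide removal had 8 of 12 positive (median 0.15). Cybb and Ncf1 encode parts of the phagocyte NADPH oxidase, which makes superoxide. Cybb had 186, 43.8 and 16.9 normalized counts in mutant 1 to 3 and 297, 169, 959 and 481 in wild-type 1 to 4 (log2 -2.88, SE 0.82; -2.08 against wild-type 1 and 2 and -3.68 against wild-type 3 and 4). Ncf1 had -0.69, and -0.38 and -1.0 against the same pairs. Mutant 1 was the highest mutant library for both, as it was for the summed neutrophil and monocyte genes, of which 6 of 15 had all mutant libraries below the wild-type range (4.34% of all genes). The part of those cells in these values was not tested. Ccs, the copper chaperone of superoxide dismutase 1, had 0.46 over all libraries, -0.02 against wild-type 1 and 2 and 0.93 against wild-type 3 and 4.

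Haem breakdown and iron handling had 6 of 20 tested genes positive and 14 negative (median -0.34). The iron importer Slc11a2 had 516, 521 and 422 normalized counts in mutant 1 to 3 and 623, 668, 796 and 554 in wild-type 1 to 4 (log2 -0.43, SE 0.20; -0.41 against wild-type 1 and 2 and -0.46 against wild-type 3 and 4). The endosomal ferrireductase gene Steap3 had 109, 193 and 152, against 222, 240, 217 and 214 (log2 -0.59, SE 0.24; -0.64 and -0.54 against the same pairs). Both had their mutant libraries below all wild-type libraries. Slc39a14, a metal importer, had -0.77 over all libraries, -0.21 against wild-type 1 and 2 and -1.34 against wild-type 3 and 4. The median against wild-type 1 and 2 was -0.10, and against wild-type 3 and 4, 4 of 20 genes were higher and 7 of 20 lower (19.7% and 22.8% of all genes). Among the lower ones was Tfrc, the transferrin receptor, whose mRNA the same iron regulatory proteins stabilize, at 399, 467 and 385 in mutant 1 to 3 and 418, 501, 1082 and 1057 in wild-type 1 to 4.

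Other NRF2 targets had 12 of 22 tested genes positive and 10 negative (median 0.24). Pir, encoding pirin, an iron-binding nuclear protein, had 149, 102 and 144 normalized counts in mutant 1 to 3 and 87.4, 80.0, 70.1 and 54.9 in wild-type 1 to 4. Its groups did not overlap (log2 0.84, SE 0.28; 0.63 against wild-type 1 and 2 and 1.05 against wild-type 3 and 4). The aldo-keto reductase gene Akr1c13 had 2633, 2543 and 3173, against 2217, 2355, 1572 and 1646, also with no overlap (log2 0.53, SE 0.20; 0.28 and 0.78 against the same pairs). Abcc1, encoding a pump that exports glutathione conjugates, went the other way, with 1278, 1418 and 1135 in mutant 1 to 3 and 1420, 1441, 4512 and 3783 in wild-type 1 to 4. Every mutant library was lower, though mutant 2 was nearly level with wild-type 1 (log2 -0.93, SE 0.44; -0.17 and -1.70 against the same pairs). Slc6a9, a glycine transporter, had -1.17 (-0.58 and -1.76 against the same pairs), with 18.1 to 34.8 in mutant and 34.3 to 84.3 in wild-type libraries. Of this list 8 of 22 genes were higher and 5 of 22 lower than in wild-type 3 and 4 (19.7% and 22.8% of all genes). In the fit with the length slope Osgin1, an oxidative stress-induced growth inhibitor, passed and was higher in the mutant, where 0.791% of all genes passed. Osgin1 was also called higher in wild-type 3 and 4 than in wild-type 1 and 2, as were 29.6% of all genes.

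**Figure D5:**
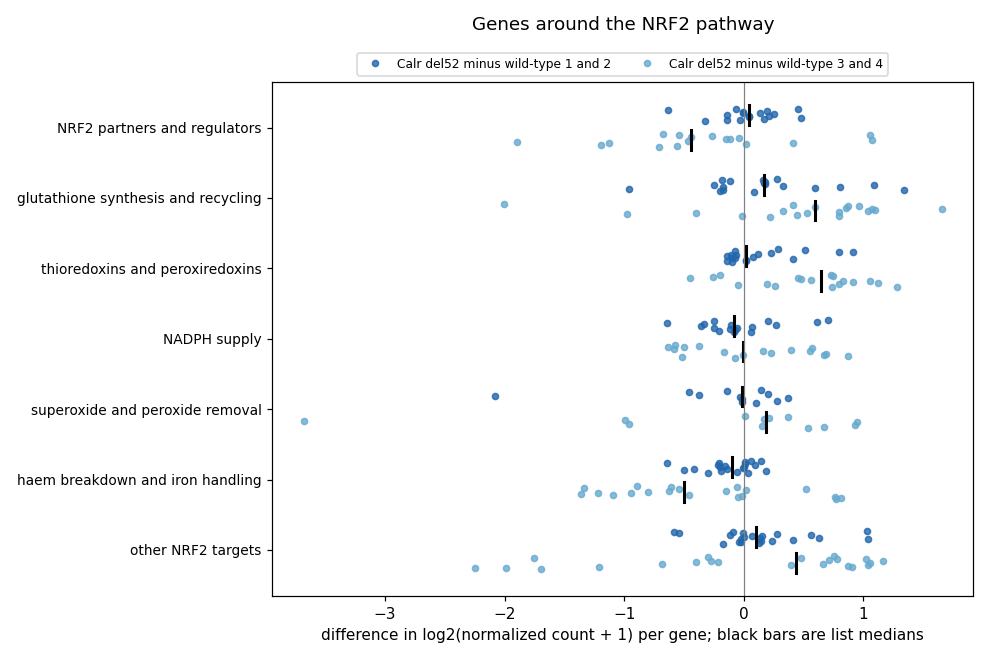
Log2 differences (horizontal axis) of genes in 7 lists around the NRF2 pathway, as Calr del52 minus wild-type 1 and 2 (dark blue) and minus wild-type 3 and 4 (light blue); each point is a gene and black bars are list medians. Medians lie between -0.10 and 0.17 against wild-type 1 and 2 and between -0.50 and 0.64 against wild-type 3 and 4.

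Genes whose values over the 7 libraries lay closest to those of Nfe2l2 were found by the root mean square distance between centred log2 values. This distance is not scaled, so it depends on the size of differences as well as on their pattern. Hsp90aa1 (0.041), an inducible HSP90 chaperone, 1810034E14Rik (0.043) and Anxa1 (0.050), annexin A1, were the nearest. Their log2 differences were 0.36, 0.35 and 0.32. Among the described genes, Srxn1 was nearest to Nfe2l2 at rank 411, although wild-type 1 was its highest library. Nqo1 at rank 682 and Gclm at rank 993 followed, and Hmox1 was farthest at rank 10189.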

How the data were processed

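RNA (PicoPure) was turned into cDNA and amplified (SMART-Seq v4), then sheared for unstranded Swift 2S Plus libraries, per the labels' protocols. The submitters' processing notes name the build GRCm38 and the tools STAR 2.7.3a, FastQC 0.11.7, DESeq2 1.12.4, Cufflinks 2.2.1 and HTSeq 0.6.1, without options that could be used here. The deposited gene signal is a count divided by a size factor per library, here called normalized count, for 19649 genes. Within a tolerance of 0.01, 100% of each library's values were multiples of 1 step, from which whole reads were recovered. A second table deposited by the authors holds FPKM for 66660 transcripts. Between 19189 and 19347 genes had reads in a given library, and these depths cover counting error only.

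A gene was tested when 3 or more libraries had a normalized count of 10 or more, which left 16047. The test was limma 3.58.1 (R 4.3.3) with a variance trend on log2 of the normalized count plus 1, two-sided, at a Benjamini-Hochberg adjusted p of 0.05 over all genes tested. Log2 differences, also those called log2 fold changes, are on that scale and understate the change of low genes. The same fit was made without either wild-type pair, and between the pairs. For transcripts the filter was FPKM 1 or more in 3 or more libraries (30156 left), and the scale log2 of FPKM plus 1. Recovered reads were also tested with edgeR 4.0.16, which called 0 genes, and DESeq2 1.42.0, which called 107. Fits were also run on simulated reads. These had the same dispersion for every gene and no difference between wild-type pairs or in length slope. They therefore cannot show how the fits behave on libraries that differ as these do. The length slope of a library is the slope of its log2 deviations from gene means against log10 exonic length, and exonic lengths came from GENCODE vM21, which matched 97.7% of genes.

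Genes named from the 7 pathway lists were the 3 of smallest p in each list and any that passed over all libraries. Some other genes were named after their values were seen: Tfrc, Sesn2, Osgin1, Abcc1, Kit, Ly6a, Slamf1, Adgre1, Cd163, Spic, C1qb, Vcam1 and the pseudogene and overlapping genes. The 10 genes, the lists and the tests were chosen with earlier results of these data known. Samples were grouped by the genotype in the labels. Alternatives changed the pseudocount, filter, scaling, variance trend, test, table, covariates and libraries.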

Additional observations from a re-analysis of the deposited data

Results flagged for a closer look

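For 5 of the 10 genes the difference between mutant and wild-type libraries was not the same against the wild-type pairs. The mutant libraries being the same, the test is that of wild-type 3 and 4 against wild-type 1 and 2 (limma), in which 54.9% of all genes passed. For Hmox1 the log2 difference against wild-type 1 and 2 was lower than that against wild-type 3 and 4 (-1.19, adjusted p = 0.00256). For Gclc it was higher by 0.51 (adjusted p = 0.00497), and for Txnrd1 by 0.62 (adjusted p = 0.00155). In these genes the sign also differed. For Fth1 and Ftl1, positive against both pairs, it was lower against wild-type 1 and 2 (-0.66 with adjusted p = 0.00119, and -0.55 with adjusted p = 0.00447). These pairs also differed in the length slope and in the title series, and the part of either in these genes was not tested. By Dixon's test at 95% on normalized counts, no wild-type library was an outlier for the 10 genes or the list genes named by smallest p. For Slc7a11, wild-type 1 (10.9 normalized counts) came near it. That result does not extend to the log2 scale of the fits, where wild-type 1 stood farther out for Slc7a11. Its log2 deviation from the gene mean was -1.42, against -0.04, -0.20 and -0.17 in wild-type 2 to 4. Where the wild-type pairs differ, each library of a pair can also hide the other from Dixon's test. For such genes the absence of an outlier says little.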

How the results depend on the processing

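Limma called 0 of 16047 genes over all 7 libraries (1365 at an unadjusted p under 0.05) and 0 with any 1 library left out, and edgeR called 0 (1639 unadjusted). Leaving out wild-type 3 and 4 gave 51 calls and leaving out wild-type 1 and 2 gave 6828. The libraries of the shared title series gave 6010, the others 1022, the series as a covariate 3597, the length slope 127, and DESeq2 107. These counts depend on which wild-type libraries are used and, over all libraries, on the covariate and the test. For transcripts the 0 calls (2077 unadjusted) became 3 with no filter, 2 when wild-type 3 and 4 were left out and 6778 when wild-type 1 and 2 were, and were 0 to 1 with 1 library left out (1 without mutant 2). Calr had a log2 difference of -0.15, which passed the exact test with FPKM (-0.13) and TMM scaling (-0.17) and was -0.18 to -0.10 with 1 library left out. Between the wild-type pairs the 8810 calls were 7100 to 7693 with 1 library left out.

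Of 240 repeated values for the 10 genes, 219 kept direction and side of the threshold, 14 kept direction and newly passed, and 7 reversed. Hmox1 reversed without wild-type 1 and 2 (0.27) and within the title series (0.38), Gclc without wild-type 3 and 4 (0.0067) and with the slope (0.041), Txnrd1 likewise (0.063 and 0.075), and Srxn1 with FPKM rescaled to a common sum (-0.0097), which shifted the median of all genes by -0.18. Idh1 reversed outside the title series (-0.062), Ccs without wild-type 3 and 4 (-0.016), and Gclm between the wild-type pairs with FPKM (-0.22). The cause was not tested. The rescaling and the ratios were chosen after seeing the data. The ratio of Nfe2l2 over Keap1 did not pass the exact test with normalized counts (p = 0.0571). With any library or pair left out, the splits are too few to reach 0.05. No paired analysis was possible because the numbers in the titles are not shared between the genotypes. At 74 to 207 reads, Hmox1 is the gene limited most by depth.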
